A study of Mus musculus with 6 samples.

Results

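The urea cycle genes described here are 9 hepatocyte genes: the cycle's enzymes Cps1, Otc, Ass1, Asl and Arg1, the enzyme Nags that makes the activator of Cps1, the mitochondrial carriers Slc25a13 and Slc25a15, and the liver glutaminase Gls2. They were chosen by symbol among the 54532 genes of the count table, 1 row each, and all 9 passed the filter on low counts. Bulk RNA sequencing was done on whole livers of mice on the C57BL/6J/Rj background. The knockout (KO) group was 3 mice with the genotype LysMcre/+ Cd44flox/flox, in which Cre recombinase expressed from the LysM locus (Lyz2) of myeloid cells deletes the hyaluronan receptor CD44. The control group, labelled WT, was 3 littermates with LysM+/+ Cd44flox/flox, which carry the floxed gene without Cre. All 6 mice were on a Lieber-DeCarli diet (6% ethanol, by volume) for 10 days. On day 11 a gavage delivered a further 5 g ethanol per kg, and the livers were taken 9 hours afterwards. Neither ethanol-free mice nor mice carrying Cre without floxed Cd44 were analysed here, so Cre, the altered Lyz2 allele and the loss of Cd44 cannot be told apart. The sources used here do not give age or sex.

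Urea is the form in which mammals dispose of ammonia, and the complete cycle runs mainly in hepatocytes. Ammonia enters in the mitochondrion, where carbamoyl phosphate is made and joined to ornithine to give citrulline, and the cycle is completed in the cytosol, where a second nitrogen comes from aspartate and arginine is split into urea and ornithine. The cycle enzymes and Gls2 are most abundant in hepatocytes near the portal vein, while hepatocytes around the central vein trap the remaining ammonia as glutamine through glutamine synthetase, Glul. Transcript levels do not measure urea production, which was not measured in these files.

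Library totals were 18428224 to 24042917 counts, and levels are given in CPM, the count relative to a library size that was scaled with edgeR's TMM factors. The labels call each library a mouse of its own, and p-values measure the spread between these 6 libraries. Cd44 stood at 2.11, 1.92 and 3.01 CPM in the KO livers and at 32.6, 34.8 and 26.4 CPM in the WT livers, the direction that the labels give. Lyz2 was also lower, with 48.3 ± 16.0 CPM in KO livers and 216 ± 20.04 CPM in WT livers (SD, n = 3 each). In bulk tissue such as this, fewer cells of a type and less RNA per cell cannot be told apart. Each gene was tested with edgeR's quasi-likelihood test, KO over WT, with Benjamini-Hochberg adjustment over all 14758 genes tested, and passed at an adjusted p under 0.05. The standard error (SE) is that of the log2 fold change.

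Of the 9 genes, 6 rose in the KO livers (Cps1, Otc, Asl, Arg1, Slc25a13 and Gls2), 0 fell, and Nags, Ass1 and Slc25a15 did not pass. DESeq2 and limma-voom also called 0 lower, and none had a lower level at an unadjusted p under 0.05. Over all genes tested, 11.9% were called higher and 13.1% lower. The fitted log2 fold changes of the 9 genes ran from 0.33 to 1.51 with a median of 0.94, against a median of −0.01 over all genes tested. For 8 of the 9 genes every KO liver stood above every WT liver, a separation that 21.4% of all genes tested showed in that direction and 22.5% in the other. Together the 9 genes took 1.37%, 1.69% and 1.23% of all counts in the KO livers, against 0.617%, 0.972% and 1.05% in the WT livers. The same 6 genes passed with limma-voom, with relative log expression (RLE) size factors and with mouse numbers as blocks. Of these, 4 passed without WT liver 2 (Arg1, Asl, Gls2 and Otc).

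**Figure D1:**
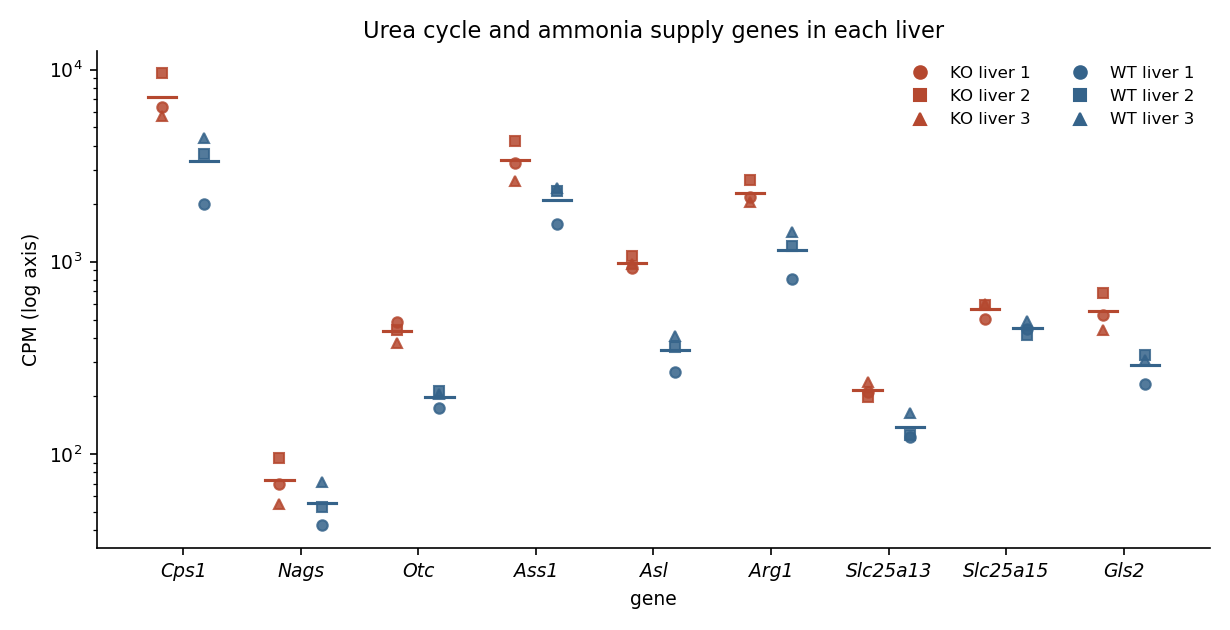
Level of each of the 9 genes in each liver, in CPM on a log axis, with KO livers left of WT livers, 1 symbol per liver and a line at the mean of 3. For 8 genes the KO livers lie wholly above the WT livers, and for Nags the groups overlap.

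**Figure D2:**
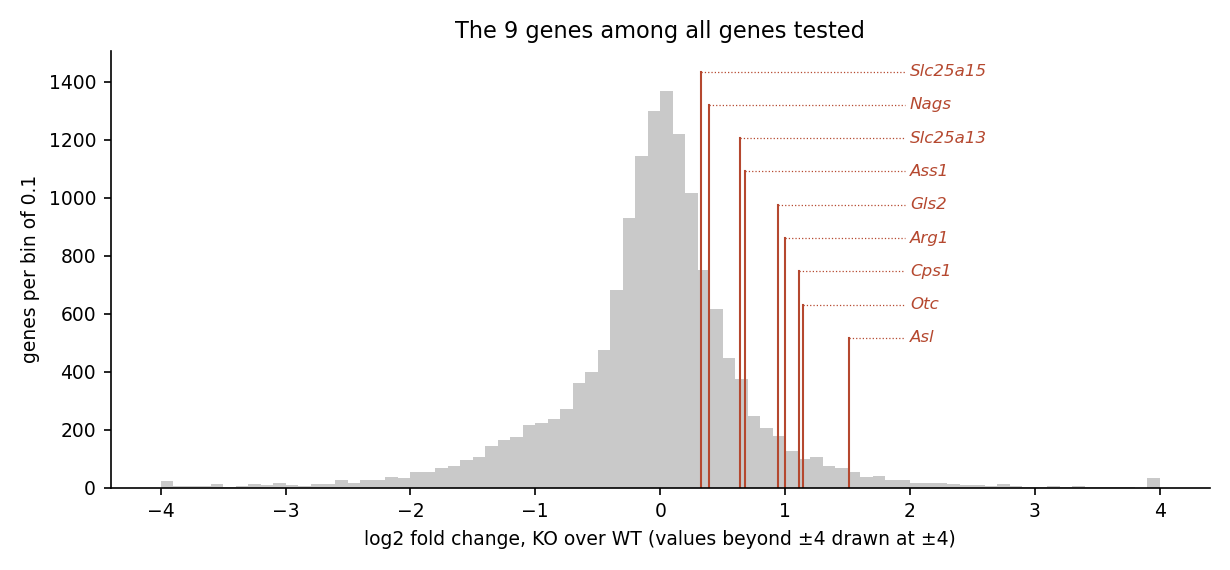
Number of tested genes (14758 in all) by log2 fold change, KO over WT, in bins of 0.1, with the 9 genes marked by lines. All 9 lie right of 0 with TMM scaling, between 0.33 for Slc25a15 and 1.51 for Asl, and Nags and Slc25a15 turn negative when scaled on hepatocyte markers.

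The mitochondrial steps come first. Cps1, carbamoyl phosphate synthetase, which fixes ammonia in the first and rate-limiting step (chromosome 1, 67123026 to 67231259 on the plus strand of GRCm38), stood at 6381, 9550.1 and 5748 CPM in the KO livers and at 1992, 3634 and 4389.7 CPM in the WT livers. Every KO liver was above every WT liver, KO liver 2 was well above the other KO livers, and WT liver 1 was the lowest of all. It was 2.16-fold higher (log2 1.11, SE 0.32, adjusted p = 0.0346 by edgeR). This call was the least firm of the 6. It was lost without KO liver 1 (adjusted p = 0.0681), KO liver 2 (0.0819), WT liver 1 (0.0596) or WT liver 2 (0.0780), and with library totals as the scale (0.0527), always with a positive log2 value. Over the 16 alternatives its adjusted p ran from 0.000816 to 0.0819.

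Otc, ornithine transcarbamylase, which joins carbamoyl phosphate to ornithine (chromosome X, 10252305 to 10321024, plus strand), had 487, 439.6 and 377 CPM in the KO livers, against 174, 213 and 206 CPM in the WT livers. The groups were far apart relative to their spread, and the fold change was 2.20 (log2 1.14, SE 0.14, adjusted p = 0.00149 by edgeR). It passed in each of 16 alternative settings, with log2 values from 0.65 to 1.23. Nags makes N-acetylglutamate, the obligate activator of Cps1 (chromosome 11, 102145513 to 102149477, plus strand). Its level was 70.04, 94.6 and 54.7 CPM in the KO livers and 42.5, 53.1 and 71.6 CPM in the WT livers. These groups overlapped, and the log2 fold change of 0.39 (SE 0.24) did not pass (adjusted p = 0.265 by edgeR). Gm11586, on the other strand, shares 443 exon bases with Nags and had at most 6 counts in any liver.

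Slc25a15, the carrier that exchanges cytosolic ornithine for mitochondrial citrulline (chromosome 8, 22375551 to 22398597, minus strand), stood at 505, 592 and 603 CPM in the KO livers, against 444, 416 and 491 CPM in the WT livers. The lowest KO liver lay just above the highest WT liver. Its log2 fold change of 0.33 (SE 0.13) was the smallest of the 9 and did not pass (adjusted p = 0.105 by edgeR). Gls2, the liver glutaminase that releases ammonia from glutamine inside the mitochondrion (chromosome 10, 128194457 to 128210004, plus strand), was at 530.4, 685 and 439 CPM in the KO livers, against 231, 326 and 308 CPM in the WT livers. The groups did not overlap, and the level was 1.91-fold higher (log2 0.94, SE 0.20, adjusted p = 0.0119 by edgeR). Spryd4 lies on the other strand and shares 97 exon bases with Gls2. Spryd4 stood at 37.1 ± 2.19 CPM in KO livers and 30.0 ± 1.88 CPM in WT livers (SD, n = 3 each). As the strand setting of the counting was not given, the reads of such pairs cannot be told apart.

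In the cytosol, Ass1, argininosuccinate synthase, joins citrulline to aspartate (chromosome 2, 31470207 to 31520672, plus strand). It stood at 3269, 4242 and 2614 CPM in the KO livers and at 1575, 2326 and 2416 CPM in the WT livers. The groups did not overlap, although KO liver 3 lay close to WT liver 3. The log2 fold change of 0.68 (SE 0.24) did not pass by edgeR (adjusted p = 0.0672). It did pass with DESeq2 (adjusted p = 0.0124), with no filter on low counts (0.0140) and without KO liver 3 (0.0415), and over the 16 alternatives its adjusted p ran from 0.0124 to 0.476.

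Asl, argininosuccinate lyase, which splits the product of Ass1 into arginine and fumarate (chromosome 5, 130011258 to 130029247, minus strand), had 922, 1065 and 969 CPM in the KO livers, against 266, 358 and 411 CPM in the WT livers. The lowest KO liver had more than any WT liver by a margin wider than the spread of either group. Asl had the largest fitted change of the 9 genes, 2.86-fold (log2 1.51, SE 0.18, adjusted p = 0.00120 by edgeR), and passed in each of 16 alternative settings (log2 1.03 to 1.68). Arg1, arginase, which releases urea and returns ornithine (chromosome 10, 24915221 to 24927484, minus strand), was at 2176, 2652 and 2037 CPM in the KO livers and at 813, 1206 and 1424 CPM in the WT livers. Its groups did not overlap, and the level was 1.99-fold higher (log2 1.00, SE 0.22, adjusted p = 0.0143 by edgeR).

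Slc25a13, citrin, exports aspartate from the mitochondrion for the Ass1 step (chromosome 6, 6041218 to 6217173, minus strand). It stood at 210.4, 198 and 236 CPM in the KO livers and at 123, 126 and 164 CPM in the WT livers. The groups did not overlap, and the fold change was 1.56 (log2 0.64, SE 0.15, adjusted p = 0.0152 by edgeR). The call was lost without WT liver 2 (adjusted p = 0.0584) and with library totals as the scale (0.0767). Over the 16 alternatives its adjusted p ran from 0.000807 to 0.455.

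The starts of 4 of these genes are shown because they pair genes that rose (Otc and Slc25a13) with genes that did not pass (Nags and Ass1). The pairing is by call and not by size, as the fitted log2 value was 0.68 for Ass1 and 0.64 for Slc25a13. The RefSeq table of promoters on GRCm38.p6 held 5 of the 9 genes, these 4 and Slc25a15. Each line runs 5′ to 3′ on the gene's strand, from 250 bases before the start to 50 bases after it, and capitals mark letters that match a searched motif. The start is that of RefSeq, which for Ass1 lies downstream of the GENCODE start given above.
Otc (chrX:10252055-10252354, plus strand): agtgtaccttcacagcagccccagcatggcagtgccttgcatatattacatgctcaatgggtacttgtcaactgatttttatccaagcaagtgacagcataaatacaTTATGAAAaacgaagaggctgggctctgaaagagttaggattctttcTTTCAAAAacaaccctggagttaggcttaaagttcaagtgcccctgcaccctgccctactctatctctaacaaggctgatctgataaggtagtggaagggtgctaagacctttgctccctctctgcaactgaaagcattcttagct
Slc25a13 (chr6:6217124-6217423, minus strand): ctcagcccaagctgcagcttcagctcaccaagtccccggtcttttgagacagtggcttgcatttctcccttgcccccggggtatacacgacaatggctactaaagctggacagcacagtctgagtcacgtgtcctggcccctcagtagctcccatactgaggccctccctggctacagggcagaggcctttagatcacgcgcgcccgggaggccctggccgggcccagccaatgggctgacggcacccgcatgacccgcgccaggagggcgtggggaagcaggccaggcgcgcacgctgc
Nags (chr11:102145263-102145562, plus strand): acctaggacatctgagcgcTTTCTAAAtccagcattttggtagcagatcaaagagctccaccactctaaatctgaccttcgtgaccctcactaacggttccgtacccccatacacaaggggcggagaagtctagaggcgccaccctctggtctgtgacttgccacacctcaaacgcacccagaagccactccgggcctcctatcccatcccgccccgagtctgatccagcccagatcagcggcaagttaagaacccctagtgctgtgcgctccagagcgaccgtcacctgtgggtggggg
Ass1 (chr2:31470020-31470319, plus strand): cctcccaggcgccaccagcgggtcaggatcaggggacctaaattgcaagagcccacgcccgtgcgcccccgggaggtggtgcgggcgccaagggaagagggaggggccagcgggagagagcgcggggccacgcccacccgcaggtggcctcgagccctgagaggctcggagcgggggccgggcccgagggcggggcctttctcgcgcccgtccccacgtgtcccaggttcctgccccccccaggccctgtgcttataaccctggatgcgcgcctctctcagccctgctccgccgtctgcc

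Among the letters searched on both strands were those for C/EBP factors (TTNNGNAA), the cyclic AMP response element (TGACGTCA), FOXA factors (TGTTTAC), HNF4 (CAAAGTCCA), the glucocorticoid receptor, FXR and a TATA box (TATAAA). The Otc window held 2 matches, both to the C/EBP letters, and the Nags window held 1. The Slc25a13 and Ass1 windows held none. The C/EBP letters occur in 40.7% of 32851 promoters of this length, the TATA letters in 13.6%, and the others in at most 3.65%. The matches did not overlap one another. The windows differed in base composition, with 44.3% G and C for Otc, 65.0% for Slc25a13, 57.7% for Nags and 74.0% for Ass1.

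Levels of different genes were compared per kilobase (kb) of annotated exon. In KO livers Ass1 (1398 ± 339 CPM per kb), Cps1 (1301 ± 367) and Arg1 (1027 ± 145) formed the top (SD, n = 3), and in WT livers they were again Ass1 (872 ± 191), Cps1 (601 ± 221) and Arg1 (515 ± 139). In KO livers their ranges overlapped, so their order is not resolved. In WT livers Cps1 overlapped both others, while Ass1 (653 to 1001) lay above Arg1 (365 to 639). With the longest coding transcript as the length, the mean of Arg1 stood before that of Cps1 in both groups, with overlapping ranges. Below them in KO livers came Asl (204 ± 15.1) and Gls2 (159 ± 35.7), whose ranges overlapped, then Otc (102 ± 13.1) and Slc25a15 (101 ± 9.56), which overlapped as well. In WT livers Gls2 (83.0 ± 14.5), Slc25a15 (80.0 ± 6.79) and Asl (71.4 ± 15.1) overlapped one another, and Otc (46.7 ± 4.85) was next. Slc25a13 came after Otc and Slc25a15 with 56.5 ± 5.14 CPM per kb in KO livers and 36.3 ± 6.01 CPM per kb in WT livers, where it overlapped Otc. Nags was the lowest in both groups, 25.8 ± 7.10 CPM per kb in KO livers and 19.6 ± 5.19 CPM per kb in WT livers, below every other gene. The place of Asl by its mean thus differed between the groups on this scale. With the longest coding transcript as the length, its mean came next after the top 3 in both. In WT livers its range on that length (110.4 to 170.2 CPM per kb) overlapped those of Slc25a15 (121 to 143) and Gls2 (89.9 to 127). Its place in WT livers is thus not resolved.

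Within the groups the 9 genes followed the livers. WT liver 1 was the lowest WT liver for 8 genes (all but Slc25a15), and KO liver 2 was the highest KO liver for 6 genes (Cps1, Nags, Ass1, Asl, Arg1 and Gls2). Otc was highest in KO liver 1, and the carriers Slc25a13 and Slc25a15 in KO liver 3. For most of the 10 general hepatocyte markers described below, KO liver 2 was likewise the highest KO liver and WT liver 1 the lowest WT liver. The distance between the centred log2 CPM of each gene over the 6 livers and the mean of the 5 cycle enzymes was smallest for Arg1 (0.145), followed by Gls2 (0.333), and largest for Slc25a15 (1.13). Each of the 5 enzymes is part of that mean, which brings it nearer, while Gls2, Nags and the carriers are not. Among 13025 other protein-coding genes, the 5 closest by this distance were Gstt1 (0.148), a glutathione S-transferase, Uroc1 (0.149), the urocanase of histidine breakdown, Rdh16 (0.173), a retinol dehydrogenase, Pipox (0.175), a peroxisomal oxidase of pipecolate and sarcosine, and Bcar3 (0.189). Uroc1 had 576 ± 104 CPM in KO livers and 281 ± 63.8 CPM in WT livers (SD, n = 3 each). This describes 6 livers, and genes with a like group difference come out close by this measure.

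Ratios between genes of the same liver do not depend on the scaling, and 10 ratios, chosen after the values were seen, were computed. Counts of Asl per count of Ass1, the next and the preceding enzyme of the cycle, were 0.282, 0.251 and 0.371 in the KO livers, against 0.169, 0.154 and 0.170 in the WT livers. The groups did not overlap, and the WT livers were nearly equal. The ratio was 1.81-fold higher in the KO livers (exact permutation test, two-sided, p = 0.1, the smallest that 3 livers against 3 allow; adjusted over the 10 ratios, 0.111). Arg1 per Ass1 was 0.690 ± 0.0798 in KO livers and 0.541 ± 0.0415 in WT livers, also without overlap (SD, n = 3 each, the same exact p = 0.1 and adjusted value 0.111). Counts of Cps1 per count of albumin (Alb) were 0.0772, 0.0990 and 0.0794 in the KO livers and 0.0378, 0.0619 and 0.0728 in the WT livers (exact permutation p = 0.1, adjusted 0.111), with KO liver 1 close to WT liver 3.

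**Figure D3:**
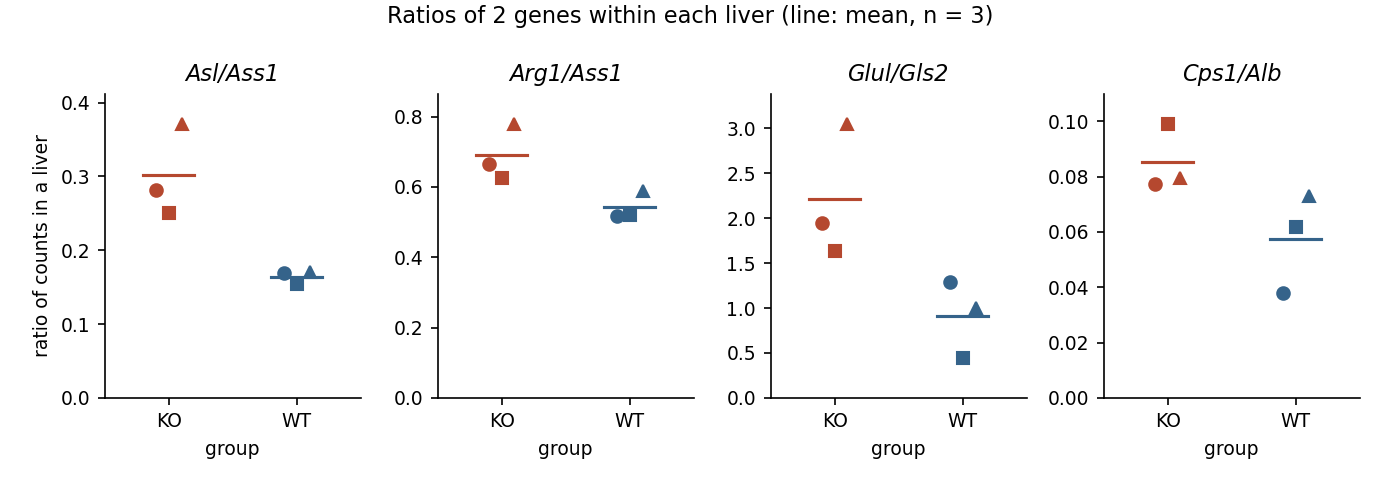
Ratio of the counts of 2 genes within each liver, for Asl per Ass1, Arg1 per Ass1, Glul per Gls2 and Cps1 per Alb, with KO livers on the left, WT livers on the right and a line at the mean of 3. In all 4 panels the KO livers lie above the WT livers, by the widest factor for Glul per Gls2 (2.56-fold).

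Some general hepatocyte transcripts were also higher. Of 10 hepatocyte markers without a strong zone, 4 rose (Ttr, Apoa2, Apoh and Apoc3) and 0 fell. Their summed level was 112887 to 148129 CPM in KO livers and 88076 to 102382 CPM in WT livers, and none was at 0 in any liver. Alb made up most of that sum, with a mean of 83834 CPM in KO livers and 57236 CPM in WT livers. When libraries were scaled on the summed hepatocyte markers, the median of all genes shifted to −0.44 on the log2 scale, and 4 of the 9 genes passed as higher (Arg1, Asl, Cps1 and Otc). Scaling on the markers' geometric mean, added after the data were seen, shifted that median to −0.50 and left Asl and Otc, with Arg1 at a log2 value of 0.50 (adjusted p = 0.0534 by edgeR). Under these scalings the log2 value of Nags was −0.053 and −0.11 and that of Slc25a15 was −0.092 and −0.16, so the direction of these 2 genes rests on the scale. Asl was at 1.09 and 1.03 and Otc at 0.71 and 0.65. Gls2 was at 0.49 and 0.42 (adjusted p = 0.0509 and 0.0824 by edgeR), and Slc25a13 at 0.24 and 0.17 (adjusted p = 0.346 and 0.455). Library totals as the scale shifted the median of all genes to −0.26 and left Arg1, Asl, Gls2 and Otc. Of all 14758 genes tested, 904 were higher and 3693 lower with library totals. The marker sum gave 581 higher and 4627 lower, and the geometric mean 539 higher and 6007 lower. This is the background for the list counts under those scalings given below.

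**Figure D4:**
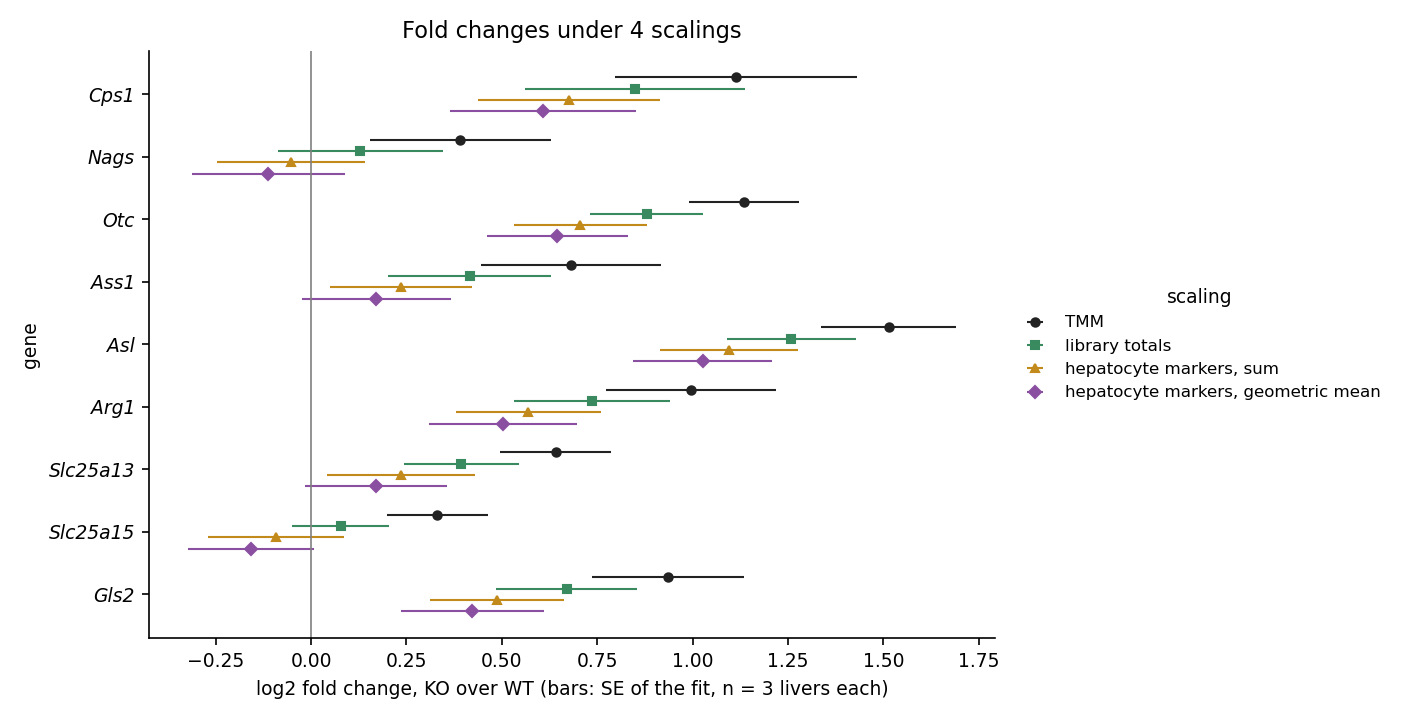
Log2 fold change, KO over WT, of the 9 genes under 4 scalings (TMM, library totals, and the sum or geometric mean of 10 hepatocyte markers), with bars for the SE of each fit. Asl and Otc stay clear of 0 under all 4, while Nags and Slc25a15 lie left of 0 under both hepatocyte scalings.

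Myeloid transcripts moved the other way. Among 10 general myeloid markers 9 were lower and 0 higher by edgeR, with a summed level of 134 to 279.6 CPM in KO livers and 435 to 535 CPM in WT livers, and of 6 Kupffer cell markers 5 fell and 0 rose (226 to 485 CPM in KO livers, 745 to 796 CPM in WT livers). The Kupffer count was 2 without KO liver 1 or WT liver 2, and 3 without WT liver 1 or WT liver 3. Arg1 is also a product of alternatively activated macrophages. Of 6 markers of those cells, Retnla was at 0 in all livers and Mgl2 was too low to test. Of the 4 tested, Chil3 and Mrc1 fell and 0 rose. Chil3 had 3, 8 and 18 counts in the KO livers and 590, 49 and 92 counts in the WT livers, and its call was lost with limma-voom and without KO liver 1. Mrc1 passed in each of 16 alternatives. The sum over all 6 markers was 64.6 to 76.6 CPM in KO livers and 107 to 129 CPM in WT livers, most of it from Mrc1 and Cd163. How much of the Arg1 level came from such macrophages was not tested. Of 7 endothelial markers 0 passed by edgeR, while 2 were lower at an unadjusted p under 0.05 and 1 was called lower by each of DESeq2 and limma-voom. Under other settings 2 were lower without KO liver 2 and with mouse numbers as blocks, 3 with library totals, and 4 and 5 with the hepatocyte scalings. Of 5 cholangiocyte markers 0 passed by edgeR, DESeq2 or limma-voom and 1 was lower at an unadjusted p under 0.05. The cholangiocyte count was 1 lower with library totals or without KO liver 2, and 2 lower with either hepatocyte scaling. Of 6 stellate cell markers 2 fell and 0 rose, with 4 lower under either hepatocyte scaling and 1 without WT liver 2 or WT liver 3. All 5 erythroid markers rose (131 to 161 CPM in KO livers, 43.4 to 86.2 CPM in WT livers), but 1 did under either hepatocyte scaling and 3 without KO liver 1 or WT liver 3. The part of cell composition in the changes of the 9 genes was not tested, and the hepatocyte scaling cannot tell it from changes shared within hepatocytes.

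Other genes of nitrogen handling were read from 3 lists of 45 genes in all, of which 42 were tested, 15 rose and 5 fell (the same background of 11.9% higher and 13.1% lower). The median log2 fold change was 0.39. Genes that bring ammonia, glutamine and bicarbonate made up the largest share of the rises, with 8 of 15 tested higher and 1 lower. There were 5 higher under either hepatocyte scaling and without WT liver 2. Car5a, the mitochondrial carbonic anhydrase that supplies Cps1 with bicarbonate, stood at 44.5, 65.1 and 41.4 CPM in the KO livers and at 6.67, 14.9 and 24.0 CPM in the WT livers. It was 3.31-fold higher (log2 1.73, SE 0.40, adjusted p = 0.0159 by edgeR), a call lost without WT liver 2. Slc38a3, the glutamine transporter SNAT3, rose with 2104 ± 468 CPM in KO livers and 1160.1 ± 114 CPM in WT livers (adjusted p = 0.0131). Hal, histidine ammonia-lyase, which frees ammonia from histidine, rose with 425 ± 96.5 CPM in KO livers and 147 ± 14.7 CPM in WT livers (adjusted p = 0.00117). Glud1 (glutamate dehydrogenase) and Sirt5 (a deacylase that acts on Cps1) rose 1.36-fold and 1.40-fold, with calls that were lost in 9 and 7 of 16 alternatives, and Glud1 turned negative in 1 of them. Car5a, Glud1 and Sirt5 were named after their values were seen.

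Glul, Rhbg and Slc1a2, the pericentral side of ammonia handling, are among the 8 rises of the ammonia list. The pericentral markers also include them and Oat of the arginine list, and the periportal markers include Hal and Sds. The calls of these genes are thus counted in more than 1 list. Glul, glutamine synthetase, stood at 1034, 1119 and 1338 CPM in the KO livers and at 298, 146 and 308 CPM in the WT livers, a 4.64-fold difference without overlap (log2 2.22, SE 0.28, adjusted p = 0.00149 by edgeR). Counts of Glul per count of the periportal Gls2 were 1.95, 1.63 and 3.05 in the KO livers and 1.29, 0.447 and 1.00 in the WT livers. Every KO liver had a higher ratio than any WT liver, and WT liver 2 was the lowest (2.56-fold, exact permutation p = 0.1, adjusted 0.111). Rhbg, an ammonia channel of pericentral hepatocytes, rose with 8.59 ± 2.37 CPM in KO livers and 2.71 ± 1.06 CPM in WT livers (adjusted p = 0.00917). Slc1a2, a glutamate transporter of the same cells, rose 7.06-fold (106 ± 18.1 CPM in KO livers, 15.0 ± 6.90 CPM in WT livers, adjusted p = 0.000869). Of 10 pericentral markers 9 rose and 0 fell (median log2 1.87), and of 10 periportal markers 3 rose (Cyp2f2, Hal and Hsd17b6) and 1 fell (Cdh1) (median log2 0.12). The periportal balance rests on the scale, with 2 higher and 4 lower under library totals and under either hepatocyte scaling, and 2 were lower without WT liver 1. Calls over all genes tested also shifted toward lower with these changes of scale. The pericentral list kept 9 higher and 0 lower under those 3 scalings. The median of the 9 urea cycle genes was 0.94.

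**Figure D5:**
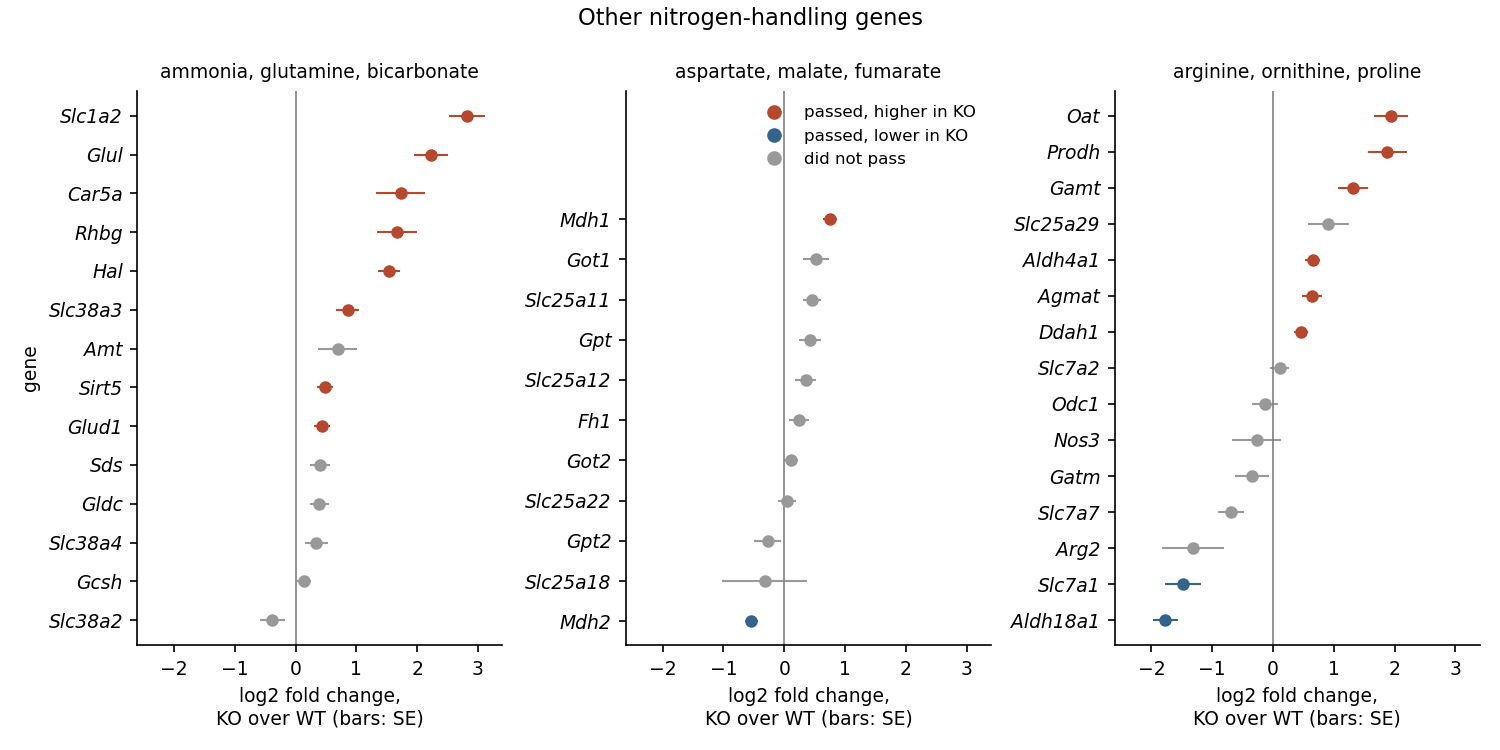
Log2 fold change, KO over WT, with SE, of tested genes in 3 lists of nitrogen handling, coloured by the edgeR call. The ammonia list lies mostly right of 0 (8 passed higher), the aspartate list has 1 call each way, and the arginine list lies on both sides (6 passed higher, 3 lower). Nos2, 1 of those 3, with 0 counts in every KO liver, is left out.

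Around aspartate and fumarate, 1 of 11 genes rose and 1 fell, near the shares over all genes tested (11.9% higher, 13.1% lower). The higher count was 2 with DESeq2, RLE size factors, no filter on low counts or the 20 most abundant genes left out, and without KO liver 2. Under the hepatocyte scalings 0 were higher and 2 or 3 lower. Cytosolic malate dehydrogenase, Mdh1, rose with 491 ± 20.8 CPM in KO livers and 292 ± 28.6 CPM in WT livers (adjusted p = 0.00454), and its mitochondrial counterpart Mdh2 fell with 230.3 ± 11.6 CPM in KO livers and 334 ± 10.9 CPM in WT livers (adjusted p = 0.0101). Mdh2 did not pass without KO liver 1 (adjusted p = 0.0556; 3.93e-05 to 0.0556 over the 16 alternatives). Slc25a12, the second aspartate carrier, stood at 38.7 ± 6.81 CPM in KO livers and 30.5 ± 4.74 CPM in WT livers and did not pass (adjusted p = 0.164). The ratio of Slc25a13 to Slc25a12 overlapped between the groups (5.71 ± 1.43 in KO livers, 4.55 ± 0.576 in WT livers, SD, n = 3 each).

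Around arginine, ornithine and proline, 6 of 16 tested genes rose and 3 fell. This balance turned round with the scale, to 3 higher and 6 lower under either hepatocyte scaling and 4 higher and 5 lower under library totals. The calls over all genes tested shifted toward lower under these scalings too. Oat, which turns ornithine into glutamate, had 847, 1083 and 1063 CPM in the KO livers and 171, 225 and 384 CPM in the WT livers (3.84-fold, adjusted p = 0.00281 by edgeR). Prodh and Aldh4a1, which degrade proline to glutamate, rose 3.68-fold and 1.57-fold (adjusted p = 0.00490 and 0.00943). Aldh18a1, which begins the synthesis of ornithine and proline from glutamate, fell with 7.30 ± 1.44 CPM in KO livers and 25.0 ± 5.31 CPM in WT livers (adjusted p = 0.00108). Gamt, which makes creatine from an arginine product, rose with 208 ± 7.30 CPM in KO livers and 83.3 ± 30.2 CPM in WT livers (adjusted p = 0.00746). Nos2, the inducible nitric oxide synthase that competes with Arg1 for arginine, had 0 counts in each KO liver and 28, 12 and 31 counts in the WT livers, at least 6.97-fold lower in KO livers when 3 counts per library are taken as the limit (adjusted p = 0.00383). Arg2, the mitochondrial arginase, was at 0.437 ± 0.176 CPM in KO livers and 1.10 ± 0.610 CPM in WT livers and did not pass (adjusted p = 0.0988).

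Of 15 transcription factors and receptors known to act on urea cycle genes, 7 rose and 1 fell (all genes tested: 11.9% higher, 13.1% lower). With library totals 4 were higher and 1 lower. The summed hepatocyte markers as the scale gave 3 higher and 1 lower, and their geometric mean 3 higher and 3 lower. Over all genes tested, calls also shifted toward lower under these scalings. Cebpa is a factor needed for the expression of urea cycle genes. Its level was 451, 584 and 542 CPM in the KO livers and 198, 239 and 306 CPM in the WT livers (2.12-fold, adjusted p = 0.00469 by edgeR). Cebpb, its acute-phase relative, fell with 137 ± 33.2 CPM in KO livers and 260.4 ± 75.7 CPM in WT livers (adjusted p = 0.0274), a call lost without KO liver 2 or 3 or without WT liver 1 or 3. The bile acid receptor FXR, Nr1h4, rose 2.39-fold (adjusted p = 0.00151), Foxa2 2.23-fold (0.00352), the glucocorticoid receptor Nr3c1 1.5-fold (0.00752) and the glucagon receptor Gcgr 1.47-fold (0.0212). Scaled on hepatocyte markers, Nr3c1 and Gcgr did not pass, and neither did Slc38a3, Mdh1, Aldh4a1 or Hsd17b6. With library totals as the scale, Nr3c1 (adjusted p = 0.0592 by edgeR), Gcgr (0.133) and Hsd17b6 (0.0844) did not pass either. Gcgr was also lost without KO liver 1, KO liver 3 or WT liver 2, and Hsd17b6 without WT liver 2. Hnf4a was at 765 ± 161 CPM in KO livers and 615 ± 25.6 CPM in WT livers and did not pass (adjusted p = 0.217). Cebpb, Hnf4a, Slc25a12, Arg2 and the cell type markers given by name were named after their values were seen.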

How the data were processed

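RNA of 6 whole livers was sequenced after poly-T selection, per the labels' protocols. The deposited values are raw counts of reads per gene, unnormalized, in a table with a column for each mouse. The submitters' processing notes name, with no role or order, the tools HISAT2 (2.0.5), StringTie (1.3.3b) and featureCounts (1.5.0-p3) and the build GRCm38.p6; strand setting and annotation release are not given there. For symbols, coordinates and exon lengths, 54495 of 54532 identifiers matched GENCODE M21 (GRCm38). Counts were filtered with filterByExpr and scaled with TMM, and edgeR 4.0.16 (R 4.3.3) fitted the quasi-likelihood model with group as its single term. Alternatives were DESeq2 1.42.0, limma-voom (limma 3.58.1), RLE, library totals, hepatocyte markers as the scale, other filters and thresholds, mouse number as a block and leaving out each liver. The fit was tried on simulated counts. No pair of livers in a group agreed within sampling noise (lowest chi-square per degree of freedom, 26.9). The 3-count limit covers counting error only. The 9 genes and all lists were chosen with earlier results of these data known. Named were the 9 genes, up to 6 passing genes per list by smallest p, and the 5 most alike genes. Some genes that this rule names are not reported here, though the counts include them.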

Additional observations from a re-analysis of the deposited data

How the results depend on the processing

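The lowest count of any of the 9 genes in any liver was 1070 (Nags, WT liver 1). Of the 16 alternatives, Otc and Asl passed in every one. Leaving out 1 liver gave 4 to 7 urea cycle genes higher and 0 lower, 2275 to 3413 genes called in all (2275 without WT liver 2, 2296 without KO liver 1), and 10 to 15 higher and 4 to 6 lower among the nitrogen lists. It gave log2 values of 0.86 to 1.38 for Cps1, 0.17 to 0.64 for Nags, 1.05 to 1.23 for Otc, 0.49 to 0.84 for Ass1, 1.37 to 1.68 for Asl, 0.81 to 1.20 for Arg1, 0.57 to 0.81 for Slc25a13, 0.29 to 0.42 for Slc25a15 and 0.75 to 1.08 for Gls2. With library totals Cps1 stood at 0.85 and Slc25a13 at 0.39, below the threshold, the nitrogen lists had 8 genes lower, and 904 genes were higher and 3693 lower in all. With the summed hepatocyte markers Slc25a13 was at 0.24, Gls2 at 0.49, Nags at −0.053 and Slc25a15 at −0.092, and the nitrogen lists had 8 higher and 10 lower, with 581 genes higher and 4627 lower in all. With their geometric mean, added after the data were seen, 6546 genes passed (539 higher, 6007 lower), 2 urea cycle genes were higher, and the nitrogen lists had 8 higher and 11 lower. Cps1 was then at 0.61, Arg1 at 0.50, Slc25a13 at 0.17, Gls2 at 0.42, Nags at −0.11 and Slc25a15 at −0.16. Each hepatocyte scale removes what the genes share with its markers by construction. Ass1 passed at 0.69 with DESeq2 and at 0.69 with no filter. At an adjusted p under 0.01, 1515 genes, 2 urea cycle genes, and 9 higher and 3 lower nitrogen genes passed. The mouse numbers do not pair the livers: deviations of same-numbered livers correlated at 0.0164, 0.0594 and −0.0891 over 10166 genes. With the replicate block 3086 genes passed, 6 urea cycle genes were higher and 0 lower, and 14 nitrogen genes were higher and 5 lower.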
